A study of Homo sapiens with 9 samples.

Results

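Plasminogen activators and their partners were followed in 5 genes, PLAU, PLAUR, PLAT, SERPINE2 and SERPINB2, out of 62666 genes in the deposited tables. The rows of the members were found by gene symbol. All 5 passed the filter on low counts, which left 17910 genes. RNA sequencing of polyadenylated RNA had been done in 3 human breast epithelial cell lines of one lineage, with 3 libraries per line and 9 in all. MCF10A is an immortal, non-tumorigenic mammary epithelial line. MCF10AT1 cells carry an activated HRAS gene that was put into MCF10A and serve as a premalignant model. MCF10Ca1a cells, of the same descent, are malignant and form tumours in mice. Each stage is therefore 1 cell line, and line and stage cannot be told apart. All 3 lines were cultured in DMEM/F12 that held insulin at 10 µg/mL, human epidermal growth factor at 20 ng/mL, hydrocortisone at 500 ng/mL, cholera toxin at 100 ng/mL, L-glutamine at 2 mM and NaHCO3 at 14 mM. Horse serum was 5% for MCF10A and MCF10Ca1a and 2.5% for MCF10AT1, so every difference of MCF10AT1 from the other lines cannot be told apart from the serum content. The study asked how expression changes along breast cancer progression.

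Plasminogen is a circulating zymogen that a plasminogen activator cuts into plasmin, a broad protease of fibrin, matrix proteins and latent growth factors. Urokinase (uPA, encoded by PLAU) and tissue-type plasminogen activator (tPA, encoded by PLAT) are the main activators. Urokinase acts at the cell surface bound to its glycolipid-anchored receptor uPAR (PLAUR), and tPA acts best on fibrin. Serpins trap both enzymes: SERPINE2 encodes protease nexin-1, which blocks urokinase, tPA, thrombin and plasmin, and SERPINB2 encodes plasminogen activator inhibitor type 2, much of which stays inside the cell. The system is known in breast cancer for its link to invasion, and urokinase is a tumour marker there.

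Totals ran from 32.9 to 69.5 M counts per library. MCF10Ca1a was the shallowest line, with at most 35.2 M, while the other libraries held at least 62.9 M. No 2 libraries of a line were identical. The labels do not say whether libraries of a line came from separate cultures, so p-values measure only the spread between these libraries, which may be technical. All 6 epithelial markers exceeded 1 TPM (transcript abundance corrected for length and depth) in every line, with sums of 1773 to 2466 TPM in MCF10A, 2668 to 3038 in MCF10AT1 and 2152 to 2233 in MCF10Ca1a. Single markers moved apart: the basal keratin KRT14 was 205, 38.8 and 4.78 TPM on average in the 3 lines and KRT5 1423, 1632 and 420, while EPCAM was 40.1, 170 and 390 and CDH1 41.5, 37.2 and 231. Summed markers of fibroblasts were 6.43 to 7.21, 27.6 to 31.5 and 1.92 to 2.29 TPM in the same order, those of endothelium 0.674 to 0.901, 0.868 to 1.32 and 15.6 to 20.8, and those of immune cells 11.2 to 17.0, 3.18 to 3.67 and 30.9 to 33.8. In each of these 3 lists at most 2 markers exceeded 1 TPM in a line, and the leading ones were DCN in MCF10AT1 and PECAM1 and CD68 in MCF10Ca1a, while PTPRC was near 0 and CD3E was at 0. The part of such markers in the results was not tested.

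The transcripts that carried the clearest difference in structure between lines were those of PLAUR. PLAUR-203 and PLAUR-202 use the same exons up to exon 6, apart from where exon 1 begins, and end in different last exons. The lower-case letters below are the shared end of exon 6 (GRCh38 chr19:43652225-43652254, minus strand), and the capitals are coding bases of each transcript's own exon 7, at chr19:43649055-43649143 for PLAUR-203 and chr19:43646460-43646548 for PLAUR-202.
PLAUR-203: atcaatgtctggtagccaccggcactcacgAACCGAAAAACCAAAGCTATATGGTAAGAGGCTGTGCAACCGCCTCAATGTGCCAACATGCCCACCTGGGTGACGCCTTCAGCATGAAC
PLAUR-202: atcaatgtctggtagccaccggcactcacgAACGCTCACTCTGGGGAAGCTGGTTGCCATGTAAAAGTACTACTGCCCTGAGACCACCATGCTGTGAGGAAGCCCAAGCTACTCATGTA
The coding sequence is 1005 bases in PLAUR-203 and 843 in PLAUR-202, with 251 and 89 of them in the last exon. A receptor mRNA with another last exon, encoding a form without the signal for the glycolipid anchor, is known for PLAUR.

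SERPINE2 was read from 2 main transcripts, of 2195 and 2161 bases, whose coding sequences of 1194 and 1191 bases differ by 3 bases at the junction of exons 6 and 7. The junction is shown because the files split the gene's counts between these transcripts. The extra bases are in capitals (GRCh38 chr2:223980398-223980400, minus strand).
ENST00000258405.9: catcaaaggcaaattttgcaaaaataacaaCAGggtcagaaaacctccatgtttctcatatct
ENST00000409304.6: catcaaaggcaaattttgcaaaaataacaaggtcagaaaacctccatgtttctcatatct
Promoter sequence is shown for PLAU, which fell most, and SERPINB2, which rose most, in MCF10AT1 against MCF10A. Both windows are the 250 bases before a RefSeq start (GRCh38.p14), chr10:73910882-73911131 on the plus strand and chr18:63887455-63887704 on the plus strand, in that order. PLAU-201 begins 25 bases after the RefSeq start, and the main SERPINB2 transcript 5 bases before it, so the last 5 bases of that window are transcribed. Capitals mark TGANTCA, the motif bound by FOS and JUN family factors, searched on both strands.
PLAU: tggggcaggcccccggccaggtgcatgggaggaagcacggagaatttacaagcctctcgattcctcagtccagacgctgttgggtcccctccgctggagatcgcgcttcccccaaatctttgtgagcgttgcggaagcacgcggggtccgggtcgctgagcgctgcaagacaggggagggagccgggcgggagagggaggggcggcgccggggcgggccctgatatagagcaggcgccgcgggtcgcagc
SERPINB2: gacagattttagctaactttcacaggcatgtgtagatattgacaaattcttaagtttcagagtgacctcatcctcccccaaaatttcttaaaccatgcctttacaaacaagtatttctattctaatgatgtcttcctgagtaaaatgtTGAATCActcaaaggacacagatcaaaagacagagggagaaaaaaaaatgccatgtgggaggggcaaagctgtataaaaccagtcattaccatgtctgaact
SERPINB2 held 1 match, 102 bases before the start, and the PLAU window held 0. Of the windows not printed, that of PLAUR held 1 match, 186 bases before its RefSeq start. Those of SERPINE2 and of another PLAU start held 0, and no window was available for PLAT. Sequence beyond 250 bases was not searched, so sites farther away would be missed. The motif occurs in 2308 of 35116 such windows (6.57%). GC content was 68.8% in the PLAU window and 37.2% in that of SERPINB2.

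The 3 lines had 3 different patterns of the system's mRNAs. MCF10A had the highest PLAU level, MCF10AT1 had the lowest PLAU and PLAT and the highest SERPINE2, and MCF10Ca1a had the highest PLAT and PLAUR and the lowest SERPINE2. In MCF10AT1 against MCF10A, 4 of 5 members passed the test, where 61.6% of all genes tested did, with PLAU and PLAT lower (31.8% of all genes) and SERPINE2 and SERPINB2 higher (29.8%). In MCF10Ca1a against MCF10AT1, 4 of 5 passed against 78.4% of all genes, with PLAU, PLAT and PLAUR higher (38%) and SERPINE2 lower (40.3%). In MCF10Ca1a against MCF10A, 5 of 5 passed against 80.9%, with PLAT, PLAUR and SERPINB2 higher (39%) and PLAU and SERPINE2 lower (41.9%). Most genes differed between these lines, and a count of 4 or 5 members of 5 is near that background. CPM values (counts scaled to library totals adjusted by TMM) did not overlap between the lines for 4, 5 and 5 members in the same order, where 65.4%, 81.9% and 81.5% of all genes did not. A gene passed with an adjusted p under 0.05 (edgeR's quasi-likelihood test, Benjamini-Hochberg over all genes). The 3 comparisons share libraries pairwise and are not independent.

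**Figure D1:**
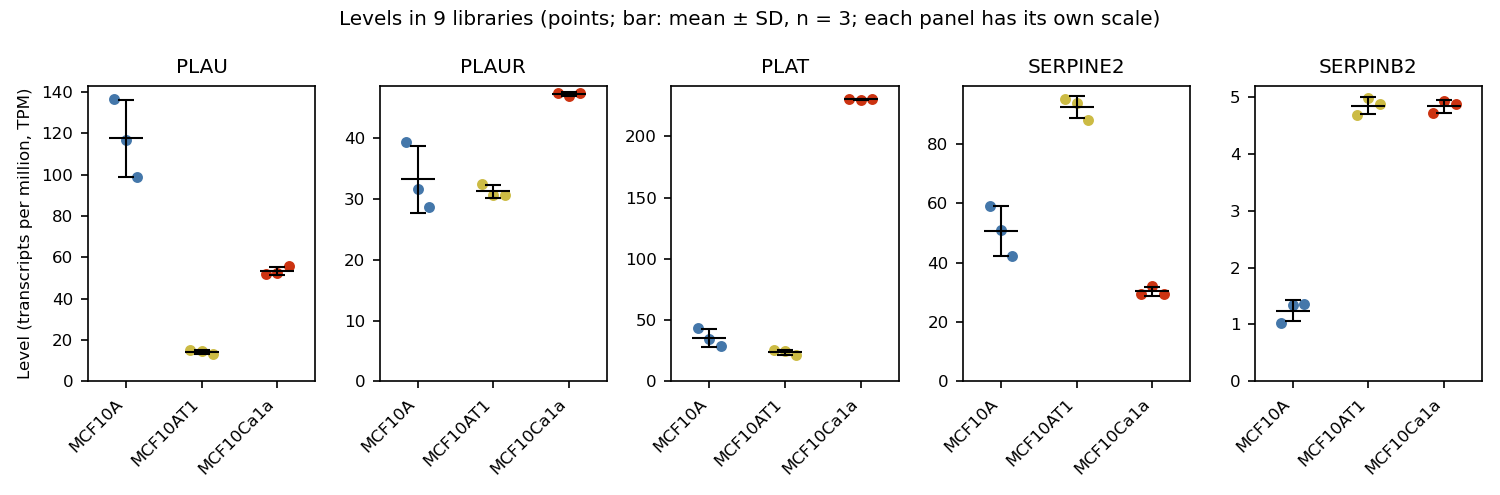
Level of each gene (TPM, vertical axis, a separate scale per gene starting at 0) in each library (points) of the 3 lines, with the mean and SD of 3 libraries as bars. PLAU is highest in MCF10A (118 TPM on average), SERPINE2 in MCF10AT1 (92.4 TPM), and PLAT in MCF10Ca1a (230.15 TPM), while SERPINB2 stays below 5 TPM in every library.

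PLAU encodes urokinase and lies at GRCh38 chr10:73909177-73917497 on the plus strand (ENSG00000122861.16). Its level was 137, 117 and 99.2 TPM in the 3 MCF10A libraries. It was 15.3, 14.7 and 13.3 TPM in MCF10AT1 and 52.1, 52.6 and 55.8 TPM in MCF10Ca1a. The lines did not overlap, MCF10A was highest and MCF10AT1 lowest, and the MCF10A libraries were spread more widely than the others. This wider spread was not particular to PLAU. In TPM, the SD of each member was 14.9% to 20.2% of its mean in MCF10A and at most 8.87% in the other lines. The cause of the spread was not tested. In such bulk RNA, fewer expressing cells and less RNA per cell cannot be told apart. On TMM-scaled counts PLAU fell by 2.87 on the log2 scale from MCF10A to MCF10AT1 (SE 0.0751, adjusted p 1.39e-12, edgeR), a 7.33-fold difference. This change was larger in size than that of 95.3% of the genes tested. PLAU was higher in MCF10Ca1a than in MCF10AT1 by 1.56 (SE 0.0735, adjusted p 1.75e-10, edgeR), or 2.95-fold, and on the TPM scale the ratio of means was 3.71. MCF10Ca1a stayed below MCF10A, by a log2 change of -1.31 (SE 0.071, adjusted p 5.56e-10, edgeR), or 2.48-fold. In rank by TPM among the 17910 genes, PLAU stood at 1244 from the top in MCF10A, 6438 in MCF10AT1 and 2894 in MCF10Ca1a. The transcript PLAU-201 held 96.2% ± 0.828 (SD, n = 3) of the gene's counts in MCF10A, 93.6% ± 0.924 in MCF10AT1 and 96.4% ± 0.702 in MCF10Ca1a, so the gene's level followed that of 1 transcript. C10orf55 overlaps PLAU on the opposite strand. It was far less abundant, at a mean of 1.57, 0.774 and 2.53 CPM against 219, 29.8 and 88.01 CPM for PLAU. The kit marked strand, per the labels, but whether the counting used it is not given in the sources used here, so reads of the pair may not be fully separated.

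PLAT encodes tPA and lies at GRCh38 chr8:42175233-42207724 on the minus strand (ENSG00000104368.19). Its level was 43.3, 34.7 and 28.96 TPM in MCF10A and 25.5, 24.6 and 21.5 TPM in MCF10AT1. In the MCF10Ca1a libraries it was 230.18, 229.64 and 230.64 TPM. The MCF10Ca1a libraries stood apart at a nearly constant level, and the lowest MCF10A library was above the highest MCF10AT1 library by a small margin. PLAT rose by 3.03 on the log2 scale from MCF10AT1 to MCF10Ca1a (SE 0.0887, adjusted p 1.78e-12, edgeR), or 8.14-fold, and the ratio of mean TPM was 9.63. Against MCF10A it was 2.66 higher in MCF10Ca1a (SE 0.0872, adjusted p 3.08e-12, edgeR), or 6.32-fold. MCF10AT1 was slightly below MCF10A, by a log2 change of -0.37 (SE 0.0838, adjusted p 0.00181, edgeR). At rank 642 from the top by TPM, PLAT was the most abundant of the 5 members in MCF10Ca1a, whereas PLAU was the most abundant in MCF10A and SERPINE2 in MCF10AT1.

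**Figure D2:**
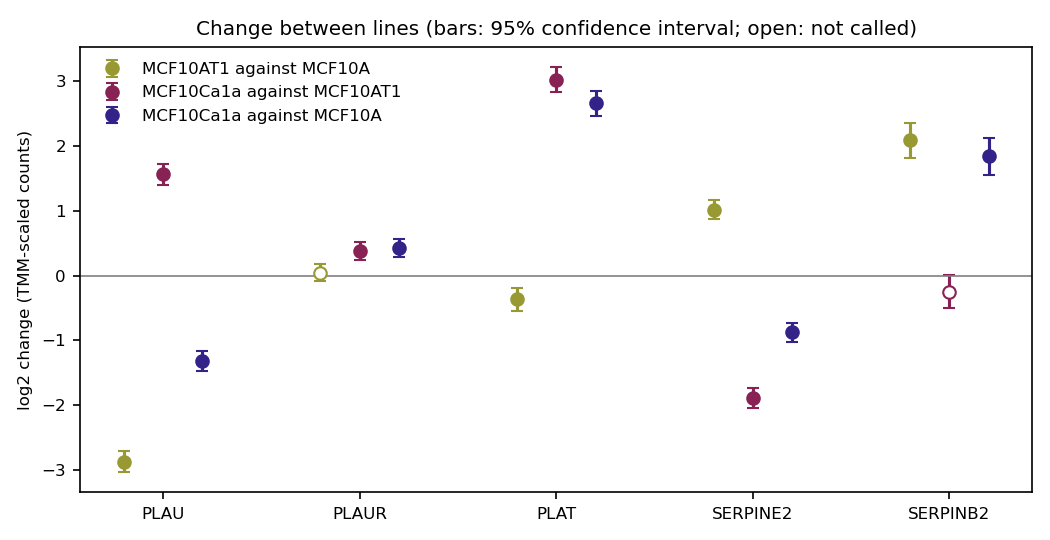
Log2 change of each gene in the 3 comparisons (vertical axis, TMM-scaled counts), with 95% confidence intervals as bars; open points did not pass the test. PLAU is lowest in MCF10AT1 against MCF10A at -2.87 and PLAT highest in MCF10Ca1a against MCF10AT1 at 3.03, and the 2 open points are PLAUR in MCF10AT1 against MCF10A (0.04) and SERPINB2 in MCF10Ca1a against MCF10AT1 (-0.25).

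The receptor gene PLAUR lies at GRCh38 chr19:43646095-43670547 on the minus strand (ENSG00000011422.12). Its level was 39.3, 31.7 and 28.6 TPM in the MCF10A libraries and 32.4, 30.7 and 30.5 TPM in those of MCF10AT1. MCF10Ca1a libraries had 47.3, 46.8 and 47.4 TPM. The MCF10A and MCF10AT1 libraries overlapped, and every MCF10Ca1a library was above them. PLAUR varied least of the members. It was 0.39 higher on the log2 scale in MCF10Ca1a than in MCF10AT1 (SE 0.0637, adjusted p 7.73e-05, edgeR) and 0.43 higher than in MCF10A (SE 0.0638, adjusted p 2.55e-05, edgeR). Between MCF10AT1 and MCF10A the change was 0.04, with a 95% confidence interval from -0.09 to 0.18 and an adjusted p of 0.561 (edgeR). Its sign turned on the TPM scale (-0.07), and without MCF10A replicate 1, the highest of its line, it was 0.12 and passed the test (adjusted p 0.0328, edgeR).

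The small rise of the receptor gene in MCF10Ca1a went with a change in which transcript was counted. Transcript shares are parts of the gene's estimated counts, and limma was run on log2 ratios of each transcript's counts to those of all other transcripts of the gene, with adjustment over all transcripts tested. PLAUR-202, which ends in the exon shown above at chr19:43646460-43646548, held 23.3%, 26.7% and 25.8% of PLAUR counts in MCF10A. It held 24.0%, 24.5% and 25.1% in MCF10AT1 and 11.0%, 11.4% and 10.6% in MCF10Ca1a. The MCF10Ca1a libraries lay far below the others, which overlapped. The log2 ratio fell by 1.39 from MCF10AT1 (SE 0.106, adjusted p 0.00018, limma) and by 1.45 from MCF10A (SE 0.106, adjusted p 1.02e-04, limma). PLAUR-203 held 70.3%, 66.1% and 66.2% in the MCF10A libraries, 68.4%, 64.6% and 64.4% in those of MCF10AT1, and 80.4%, 77.8% and 80.7% in those of MCF10Ca1a. Its log2 ratio rose by 1.02 from MCF10AT1 (SE 0.129, adjusted p 0.00155, limma) and by 0.91 from MCF10A (SE 0.129, adjusted p 0.00179, limma). In TPM, PLAUR-203 went from 21.8 ± 4.43 (SD, n = 3) in MCF10A and 19.9 ± 1.47 in MCF10AT1 to 37.3 ± 1.04 in MCF10Ca1a, while PLAUR-202 went from 8.36 ± 0.908 and 7.67 ± 0.173 to 5.34 ± 0.115. These 4 calls held with each of the 9 libraries left out in turn. Over all transcripts tested, shares passed for 27.4% in MCF10Ca1a against MCF10AT1, 33.9% against MCF10A and 5.46% in MCF10AT1 against MCF10A, where no transcript of a member passed.

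**Figure D3:**
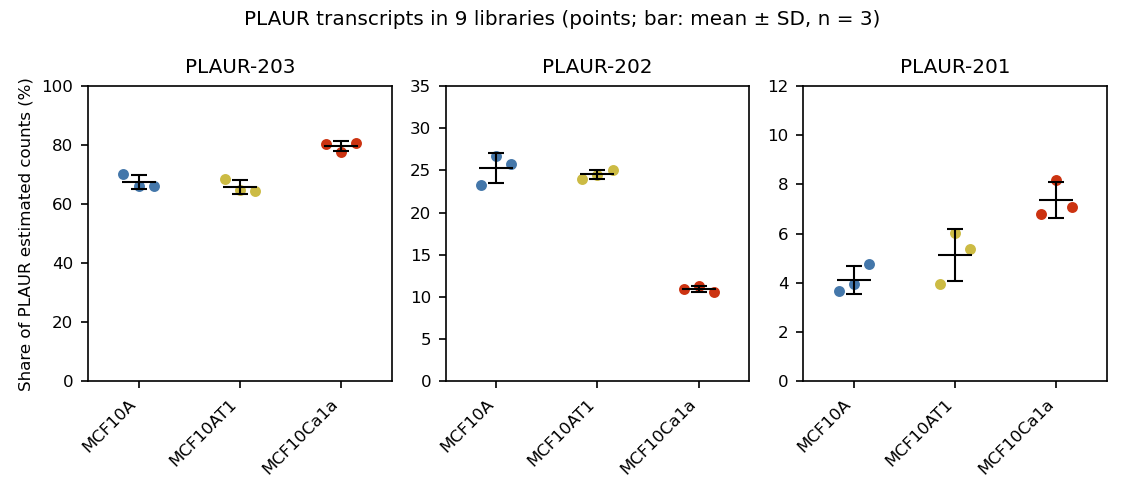
Share of PLAUR estimated counts (%, vertical axis, a separate scale per transcript starting at 0) held by PLAUR-203, PLAUR-202 and PLAUR-201 in each library (points), with the mean and SD of 3 libraries as bars. PLAUR-202 falls to 11.0% in MCF10Ca1a from 25.2% in MCF10A and 24.5% in MCF10AT1, and PLAUR-203 rises to 79.6%.

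Other transcript calls among the members did not hold in every analysis with a library left out. PLAUR-201 lacks an exon of 135 bases (chr19:43655439-43655573) and held 4.13% ± 0.578 (SD, n = 3) of PLAUR counts in MCF10A and 7.37% ± 0.728 in MCF10Ca1a (log2 ratio change 0.89, adjusted p 0.0250, limma). That call held in 5 of 9 such analyses, where the change ran from 0.80 to 1.001. PLAU-202 held 5.72% ± 1.15 of PLAU counts in MCF10AT1 and 2.59% ± 0.372 in MCF10Ca1a (-1.18, adjusted p 0.0267, limma), PLAU-201 changed by 0.87 (adjusted p 0.0422, limma), and these calls held in 5 and 2 of 9, with changes from -1.29 to -1.01 and from 0.71 to 1.01. PLAT counts were split over several transcripts, of which ENST00000678676.1 held 28.3% to 32.1% of counts by line and PLAT-202, which lacks an exon of 138 bases, 23.5% to 27.1%. The third, ENST00000679300.1, held 14.9% ± 2.41 in MCF10AT1 and 22.8% ± 1.86 in MCF10Ca1a (0.77, adjusted p 0.0265, limma), a call kept in 5 of 9. With a library left out the change of ENST00000679300.1 ran from 0.61 to 0.87, with adjusted p of 0.0259 to 0.0741 (limma). ENST00000409304.6 held 77.0% ± 2.51, 80.8% ± 3.20 and 83.9% ± 6.08 of SERPINE2 counts in the 3 lines and ENST00000258405.9 held 20.4% ± 2.85, 15.03% ± 2.99 and 11.8% ± 5.18, with no call. How reads are assigned between transcripts that share most exons adds an error that was not available in these values.

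SERPINE2, the gene of protease nexin-1, lies at GRCh38 chr2:223975112-224039319 on the minus strand (ENSG00000135919.14). Its level was 59.2, 50.9 and 42.4 TPM in the MCF10A libraries and 95.2, 93.9 and 88.2 TPM in those of MCF10AT1. MCF10Ca1a libraries had 29.6, 32.0 and 29.3 TPM. The lines did not overlap, and their order was the reverse of that of PLAT. SERPINE2 was 1.02 higher on the log2 scale in MCF10AT1 than in MCF10A (SE 0.0669, adjusted p 1.60e-08, edgeR). It fell by 1.90 from MCF10AT1 to MCF10Ca1a (SE 0.0708, adjusted p 1.68e-11, edgeR), which left MCF10Ca1a below MCF10A by a log2 change of -0.88 (SE 0.0703, adjusted p 4.03e-08, edgeR).

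SERPINB2, the gene of plasminogen activator inhibitor type 2, lies at GRCh38 chr18:63871692-63903890 on the plus strand (ENSG00000197632.9). It was the least abundant member, with 71, 99 and 114 counts in the MCF10A libraries, 388, 410 and 387 in those of MCF10AT1 and 177, 175 and 185 in the shallower ones of MCF10Ca1a. In TPM these were 1.03, 1.33 and 1.36, then 4.68, 4.97 and 4.87, then 4.71, 4.92 and 4.87. MCF10A was below both other lines without overlap, and MCF10AT1 and MCF10Ca1a overlapped in TPM but not in CPM. SERPINB2 was 2.09 higher on the log2 scale in MCF10AT1 than in MCF10A (SE 0.127, adjusted p 6.95e-09, edgeR), or 4.26-fold, and 1.84 higher in MCF10Ca1a (SE 0.132, adjusted p 1.21e-08, edgeR), or 3.59-fold. Between MCF10Ca1a and MCF10AT1 the change was -0.25 (SE 0.118, adjusted p 0.0699, edgeR). It passed without MCF10A replicate 1 (adjusted p 0.0118, edgeR) or without MCF10A replicate 3 (0.0386). Those libraries belong to neither line compared, but all 9 libraries share 1 estimate of the spread in the fit. The SD of SERPINB2 was 19.6% of mean CPM in MCF10A, 3.75% in MCF10AT1 and 2.98% in MCF10Ca1a. The part of this spread in the calls was not tested. The change was -0.00 on the log2(TPM + 1) scale.

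Summed by role, the mRNA of the 2 activators was 153 ± 26.0 TPM (SD, n = 3) in MCF10A, 38.3 ± 3.11 in MCF10AT1 and 284 ± 2.39 in MCF10Ca1a. The sum of the 2 serpins moved the other way, with 52.1 ± 8.24, 97.3 ± 3.67 and 35.1 ± 1.52 TPM. The ratio of activator to serpin mRNA was 2.94 ± 0.0455 in MCF10A, 0.394 ± 0.0175 in MCF10AT1 and 8.09 ± 0.382 in MCF10Ca1a. These sums describe mRNA of 4 genes and were not tested. They leave out other inhibitors, such as SERPINA5, which was 1.06, 1.92 and 11.6 TPM on average in the 3 lines. The makeup of the activator mRNA also differed: PLAT was 23.2% ± 0.751 of it in MCF10A, 62.3% ± 0.527 in MCF10AT1 and 81.1% ± 0.540 in MCF10Ca1a. SERPINB2 was a minor part of the serpin mRNA, at 2.46% ± 0.709, 4.99% ± 0.276 and 13.8% ± 0.455.

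**Figure D4:**
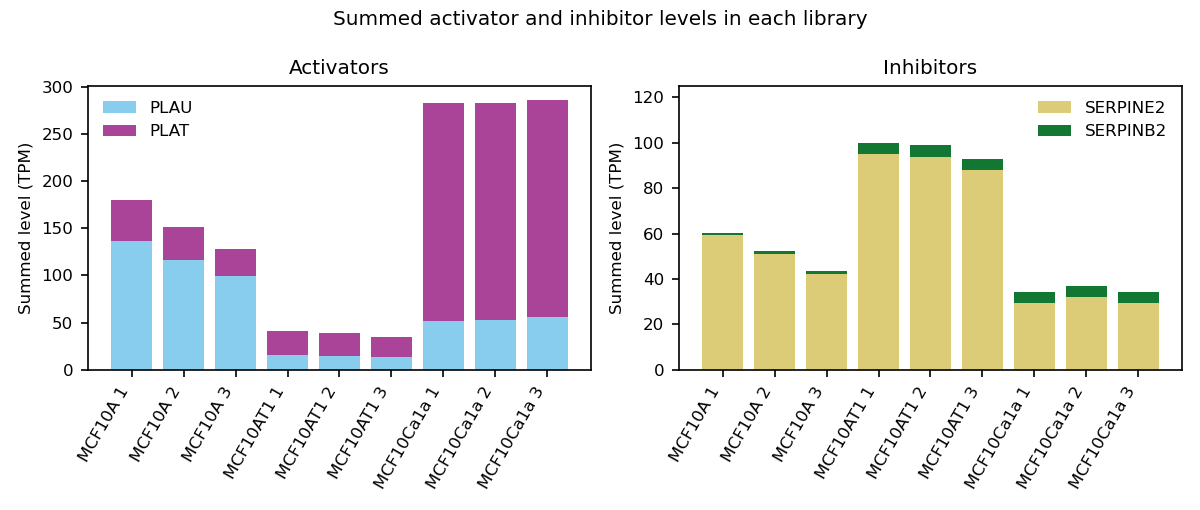
Summed TPM of PLAU and PLAT (left) and of SERPINE2 and SERPINB2 (right) in each of the 9 libraries, stacked by gene, with axes starting at 0. The activator sum is lowest in MCF10AT1 (38.3 TPM on average) and mostly PLAT in MCF10Ca1a, and the serpin sum is highest in MCF10AT1 (97.3 TPM).

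The 5 members did not share a profile over the 9 libraries. The root mean square distance between centred log2 CPM profiles ran from 0.877 (PLAUR and SERPINB2) to 2.07 (PLAT and SERPINE2). For each member the closest 3 of 12620 candidate genes were named. PLAU was closest to IFNLR1 (0.167), DPYSL3 (0.201) and ZNF605 (0.243), where the median gene was at 1.25. PLAT was closest to PNPLA2 (0.0700), ALDOC (0.113) and COL16A1 (0.139), against a median of 1.44. The genes closest to PLAUR were HMCES (0.0144), DPAGT1 (0.0270) and MFN2 (0.0308), against 0.449. SERPINE2 was closest to SESN3 (0.104), EXO5 (0.111) and ZNF608 (0.124), against 0.837, and SERPINB2 to SH3TC2-DT (0.160), INSIG1 (0.174) and ADGRL3 (0.176), against 1.04. With 3 lines, such a profile has few free points.

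Genes next to the members differed in whether they changed in the same direction. AP3M2 ends 3.56 kb from PLAT and went the other way, with a log2 change of -1.92 in MCF10Ca1a against MCF10AT1 (adjusted p 1.83e-11, edgeR) and -1.52 against MCF10A (adjusted p 1.54e-10, edgeR), and KAT6A beyond it did not pass in any comparison. To the other side of PLAT, IKBKB-DT at 26.0 kb changed as PLAT did in MCF10AT1 against MCF10A (-0.87, adjusted p 0.00116, edgeR) and in MCF10Ca1a against MCF10AT1 (0.77, adjusted p 0.00331, edgeR), and had -0.10 in MCF10Ca1a against MCF10A (adjusted p 0.654, edgeR). IKBKB, at 63.6 kb, had -0.13, -0.24 and -0.36 in the 3 comparisons, all past the test. Around PLAU, CAMK2G at 34.6 kb fell by 0.26 in MCF10AT1 against MCF10A and was 1.09 higher in MCF10Ca1a than in MCF10AT1, a smaller change than that of PLAU at the first step, and VCL at 77.7 kb had -0.19 (adjusted p 0.106, edgeR) and 0.81. In MCF10Ca1a against MCF10A, where PLAU was lower, both were higher, CAMK2G by 0.83 (adjusted p 1.79e-09, edgeR) and VCL by 0.62 (adjusted p 3.90e-05, edgeR). MRPL44, 7.40 kb from SERPINE2, changed in the directions of SERPINE2 by 0.32, -0.74 and -0.42 in the 3 comparisons. CUL3, 431 kb away on the other side, was higher in each (0.14, 0.31 and 0.45, all past the test), and DOCK10 beyond it was lower in each. The serpin genes beside SERPINB2 differed from it and from one another: SERPINB8 had -0.56, -1.71 and -2.27, SERPINB7 had 0.97, -1.83 and -0.86, and SERPINB3, an inhibitor of cathepsins, had 1.68, 1.32 and 3.00, all past the test. Near PLAUR, CADM4 at 6.26 kb had 0.76, -1.44 and -0.68, and SMG9 at 57.4 kb, on the other side, had 0.24, 0.97 and 1.21, all past the test. ZNF428 was 0.39 higher in MCF10Ca1a than in MCF10AT1, as PLAUR was, and did not pass in the other comparisons. KCNN4 at 96.0 kb from PLAUR had 0.80, -0.35 and 0.45, all past the test.

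The other genes of the pathway were read from 7 lists. Their counts stand against the shares of all genes tested, which were 29.8% higher and 31.8% lower in MCF10AT1 against MCF10A, 38% and 40.3% in MCF10Ca1a against MCF10AT1, and 39% and 41.9% in MCF10Ca1a against MCF10A. Plasminogen itself (PLG) had at most 1 count in any library, so its mRNA was not detectable beyond that at this depth. Of 9 proteases that can activate pro-urokinase or plasminogen, 5 passed the filter. In MCF10Ca1a against MCF10AT1 1 of these rose, 3 fell and 1 did not pass, with a median log2 change of -1.20, where the median of all genes was -0.04. With 78.4% of all genes called, 4 of 5 is near the background. On the log2(TPM + 1) scale 2 rose and 3 fell, with a median of -0.21. ST14 (matriptase, an activator of pro-urokinase) was 0.75 higher (adjusted p 5.90e-07, edgeR), at 38.2 ± 1.16 TPM (SD, n = 3) in MCF10AT1 and 78.7 ± 0.942 in MCF10Ca1a. F12 (coagulation factor XII) fell by 1.75 (adjusted p 2.01e-10, edgeR), from 21.9 ± 1.11 to 7.46 ± 0.570 TPM. In MCF10AT1 against MCF10A 1 rose and 1 fell (1 and 2 on the log2(TPM + 1) scale), with CTSB (cathepsin B) the one that fell on counts (-0.84), and in MCF10Ca1a against MCF10A 2 rose and 3 fell.

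Of 7 cell surface plasminogen receptors, all 7 fell in MCF10Ca1a against MCF10AT1, where 40.3% of all genes tested did, with a median log2 change of -0.57 (-0.04 over all genes). On the log2(TPM + 1) scale 4 of them fell and 0 rose, with a median of -0.27 (0.13 over all genes). ANXA2 and S100A10, which form the annexin A2 complex that binds plasminogen and tPA, had -0.86 and -0.65, at 3058 ± 20.3 and 1647 ± 12.7 TPM in MCF10Ca1a. HMGB1 fell most, by 2.26 (adjusted p 6.16e-13, edgeR), from 988 ± 42.9 to 268 ± 3.13 TPM. In MCF10AT1 against MCF10A 3 rose and 0 fell, with KRT8, a keratin that also binds plasminogen on epithelial cells, at 110 ± 17.3 TPM in MCF10A and 449 ± 33.1 in MCF10AT1 (log2 change 2.21, adjusted p 1.99e-11, edgeR). On the log2(TPM + 1) scale 3 rose and 2 fell there. KRT8 was also counted among the epithelial markers. In MCF10Ca1a against MCF10A 2 rose and 5 fell.

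Partners of uPAR and the endocytic receptors that clear activator and serpin complexes were measured for 16 of 18 genes. In MCF10AT1 against MCF10A 3 rose and 10 fell (median -0.30), in MCF10Ca1a against MCF10AT1 9 rose and 5 fell (median 0.39), and in MCF10Ca1a against MCF10A 6 rose and 7 fell (median -0.07, and 0.09 with 7 rising and 4 falling on the log2(TPM + 1) scale, and 7 and 6 with DESeq2 size factors). In the first comparison 31.8% of all genes fell, and the 6 and 7 of 16 in the last are near the 39% and 41.9% of all genes. LRP1, the main clearance receptor of urokinase and tPA complexes, fell by 1.66 in MCF10AT1 against MCF10A (adjusted p 1.30e-09, edgeR), from 2.03 ± 0.184 to 0.604 ± 0.141 TPM (SD, n = 3). SORL1, another sorting receptor of these complexes, was 2.39 ± 0.409, 1.07 ± 0.0916 and 0.346 ± 0.168 TPM in the 3 lines. It fell by 2.29 from MCF10AT1 to MCF10Ca1a and by 3.37 from MCF10A on TMM-scaled counts, or 4.89-fold and 10.4-fold, where the ratios of mean TPM were 3.09 and 6.89. ITGA5, the fibronectin receptor subunit, was at 37.3 ± 1.84 TPM in MCF10AT1 and 154 ± 7.10 in MCF10Ca1a (log2 change 1.74, adjusted p 3.21e-10, edgeR). LYPD3, a relative of uPAR on chromosome 19, was 9.94 ± 1.45, 41.6 ± 3.03 and 76.6 ± 1.11 TPM in the 3 lines and 2.81 higher in MCF10Ca1a than in MCF10A (adjusted p 2.09e-13, edgeR). LRP2 was read with 2, 1 and 1 counts in the MCF10A libraries, 132, 121 and 109 in those of MCF10AT1 and 21, 10 and 16 in those of MCF10Ca1a.

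Substrates of plasmin and urokinase passed the filter for 17 of 19 genes. In MCF10AT1 against MCF10A 1 rose and 12 fell (median -0.51), in MCF10Ca1a against MCF10AT1 6 rose and 8 fell (median 0.18), and in MCF10Ca1a against MCF10A 4 rose and 10 fell (median -0.87, and -0.50 on the log2(TPM + 1) scale). Of all genes, 31.8% fell in the first comparison, and the 6 and 8 of 17 in the second are near the 38% and 40.3% of all genes. The balance of MCF10Ca1a against MCF10AT1 turned on the log2(TPM + 1) scale, where 8 rose and 7 fell, and with DESeq2 size factors 7 rose and 7 fell. MMP9, a gelatinase that plasmin can activate through other proteases, had 1090, 915 and 936 counts in the MCF10A libraries, against 1, 1 and 0 in those of MCF10AT1 and 3, 3 and 4 in those of MCF10Ca1a. F2R, the thrombin receptor, had 1145, 1081 and 995 counts in the MCF10A libraries, 571, 603 and 502 in those of MCF10AT1 and 0, 0 and 1 in those of MCF10Ca1a. LAMB3, a chain of the basement membrane laminin that plasmin cuts, was 283 ± 69.8, 193 ± 0.273 and 884 ± 15.9 TPM (SD, n = 3), a log2 change of 1.91 in MCF10Ca1a against MCF10AT1 (adjusted p 6.11e-10, edgeR). FGF2, a growth factor released from matrix by plasmin, was 0.41 higher in MCF10AT1 than in MCF10A (adjusted p 1.99e-05, edgeR).

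Other inhibitors changed in both directions. Of 9 genes for plasminogen and plasmin inhibitors 4 passed the filter, and A2M and PZP did not. SERPINA5, the protein C inhibitor that also blocks urokinase, was 1.06 ± 0.224, 1.92 ± 0.127 and 11.6 ± 0.985 TPM (SD, n = 3) and 3.36 higher in MCF10Ca1a than in MCF10A (adjusted p 2.19e-12, edgeR). TFPI2, an inhibitor of plasmin in the matrix, had 508, 449 and 505 counts in the MCF10A libraries. MCF10AT1 libraries had 1, 1 and 0, and each MCF10Ca1a library had 0. SERPINF2, the plasmin inhibitor of blood, was at or below 1.12 TPM on average in every line. In the Kunitz and other inhibitor list 3 of 6 rose and 3 fell in each comparison, where 61.6%, 78.4% and 80.9% of all genes were called. On the log2(TPM + 1) scale 2 rose and 3 fell in MCF10AT1 against MCF10A. TFPI, the inhibitor of the tissue factor pathway, was 94.6 ± 2.80 TPM in MCF10A, 20.4 ± 1.71 in MCF10AT1 and 219 ± 3.31 in MCF10Ca1a (log2 changes of -1.94 and 2.93, adjusted p 1.53e-12 and 3.61e-14, edgeR). SPINT1 and SPINT2, inhibitors of matriptase and related proteases, were higher at both steps, by 0.61 and 1.07 for SPINT1 and by 0.83 and 0.71 for SPINT2.

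Of 15 transcription factors known to act at plasminogen activator genes, 10 rose and 4 fell in MCF10AT1 against MCF10A, where 29.8% and 31.8% of all genes did, with a median log2 change of 0.25 (-0.00 over all genes). On the log2(TPM + 1) scale 7 rose and 3 fell there, with a median of 0.097 (-0.07 over all genes). In MCF10Ca1a against MCF10AT1 6 rose and 6 fell, or 6 and 3 on the log2(TPM + 1) scale. In MCF10Ca1a against MCF10A 7 rose and 8 fell (median -0.16), where 39% and 41.9% of all genes did. That balance turned to 7 and 5 on the log2(TPM + 1) scale and to 7 and 6 with DESeq2 size factors. FOS was 124 ± 10.2, 195 ± 3.87 and 57.9 ± 1.20 TPM (SD, n = 3) in the 3 lines, and FOSB followed the same order with 8.81 ± 1.11, 15.1 ± 1.44 and 5.03 ± 0.284. FOSL2 was 16.6 ± 2.78, 20.9 ± 0.389 and 67.4 ± 1.34 TPM, a log2 change of 1.43 in MCF10Ca1a against MCF10AT1 (adjusted p 1.64e-10, edgeR). NFKB1 fell by 0.64 in MCF10AT1 against MCF10A (adjusted p 2.07e-06, edgeR). FOS, FOSB and FOSL2 belong to the family that binds the motif marked in the SERPINB2 window, which the PLAUR window also held. In MCF10AT1 against MCF10A PLAUR did not pass the test, while SERPINE2, with 0 matches in its windows, was higher. No binding was measured.

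**Figure D5:**
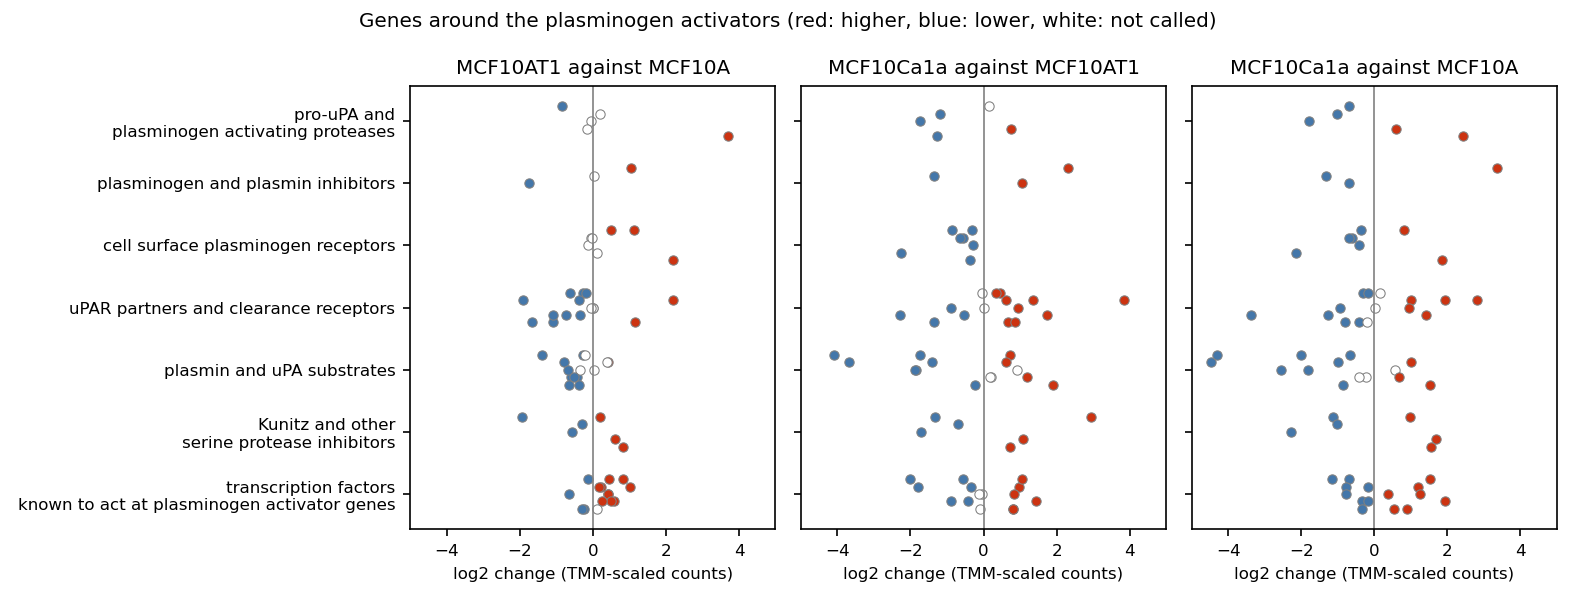
Log2 change (horizontal axis, TMM-scaled counts) of each gene of the 7 lists in the 3 comparisons, red where higher, blue where lower and white where the test was not passed; genes with 3 counts or fewer in every library of a line are left out. The 7 plasminogen receptors all lie left of 0 in MCF10Ca1a against MCF10AT1, with a median of -0.57 (-0.27 on the log2(TPM + 1) scale).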

How the data were processed

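Members and gene lists were chosen with earlier results of these data known. The authors deposited expected (estimated) counts and TPM per gene and per transcript, made with Salmon on hg38 per the submitters' processing notes; the version and annotation are not given in the sources used here. Estimated counts as deposited were rounded to integers, genes kept with filterByExpr by line (minimum count 10, minimum total 15), and tested with edgeR 4.0.16 (R 4.3.3): quasi-likelihood, TMM, all 9 libraries in 1 fit, Benjamini-Hochberg adjustment at 0.05. TPM were used as deposited. Confidence intervals are at 95%. Transcript shares were tested with limma 3.58.1 on log2 ratios with 0.5 added, for transcripts averaging at least 10 counts and 5% of a gene of at least 50 counts. Both tests were also run on simulated counts. The transcript simulation used a fixed spread and not that of these data, and no result here rests on it.

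Positions and transcript names came from GENCODE 29 on GRCh38 (92.9% of 62666 identifiers matched; 12 of 17 PLAT transcripts), promoter windows from RefSeq. The text names the 5 members, the 3 closest profiles and up to 3 of the most abundant transcripts per member, neighbours, and in each list and comparison the largest rise and largest fall among called genes whose libraries did not overlap and whose higher line averaged 100 counts or more. Other genes named were chosen after their values were seen. Not every inhibitor of the activators was analysed here. The replicate numbers were not used to pair libraries in the main fit. Alternatives were DESeq2 1.42.0 (test and size factors), no filter, length-scaled and scaled counts, log2(TPM + 1) and log2(TPM + 0.1), only the lines compared, a replicate block, and each library left out; the scalings of the lists were added after seeing the data. Per-list settings are those named beside each list.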

Additional observations from a re-analysis of the deposited data

How the results depend on the processing

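Of 300 alternative values for the members, 291 kept their direction and side of the threshold and 0 lost a call. The exceptions were 2 comparisons. PLAUR in MCF10AT1 against MCF10A turned to -0.0745 on the log2(TPM + 1) scale, with and without the filter (-0.0745), and to -0.0763 with log2(TPM + 0.1), and with a library left out it ran from -0.0135 to 0.122. SERPINB2 in MCF10Ca1a against MCF10AT1 passed with no filter (-0.34, adjusted p 0.0141, edgeR) and with only the lines compared (-0.23, adjusted p 0.0193, edgeR); with a library left out it ran from -0.29 to -0.22. The cause was not tested. Counts of all genes called stayed within 1.5 times in all 60 alternatives. On the log2(TPM + 1) scale 36.2% of the genes called in MCF10AT1 against MCF10A were higher, against 48.4% on counts, and 61.6% in MCF10Ca1a against MCF10AT1, against 48.5%. The median of all genes moved to -0.11, 0.21 and 0.10 in the 3 comparisons with log2(TPM + 0.1).

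With the replicate number as a block no member gained or lost a call (PLAUR 0.05 in MCF10AT1 against MCF10A). Over all genes tested, correlations of same-numbered deviations ran from -0.06 to 0.05, which cannot exclude an order shared by single genes. PLAU, PLAT, PLAUR and SERPINE2 fell steadily in TPM from replicate 1 to replicate 3 in both MCF10A and MCF10AT1, but not in MCF10Ca1a. SERPINB2 did not fall in this way in any line. Whether the numbers pair libraries is not known. In the transcript shares, the block ended the calls of PLAU-201 (0.87, adjusted p 0.0997, limma), PLAU-202 (-1.18, 0.068) and ENST00000679300.1 (0.77, 0.0715) in MCF10Ca1a against MCF10AT1. Of 396 alternative values for transcript shares, 356 kept their direction and side of the threshold, 22 lost a call, 7 gained one and 11 changed sign. Among the gains was ENST00000679300.1 in MCF10Ca1a against MCF10A, called in 2 of 9 analyses with a library left out. Without 1 library, shares that had not been called changed sign: PLAT-203 in MCF10AT1 against MCF10A ran from -2.44 to 4.23 and in MCF10Ca1a against MCF10A from -4.83 to 0.66. In MCF10AT1 against MCF10A, PLAT-202 ran from -0.394 to 0.0388, PLAUR-202 from -0.13 to 0.0023 and ENST00000679151.1 from -1.37 to 0.17. PLAU-201 in MCF10Ca1a against MCF10A ran from -0.12 to 0.24. Depth limits SERPINB2 most, with 71 counts in its lowest library.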

Other observations

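Some further genes of the lists stood out, all chosen after their values were seen. LTBP1, which holds latent TGF-beta in the matrix and is cut by plasmin, was 74.6 ± 16.9 TPM (SD, n = 3) in MCF10A, 39.2 ± 1.64 in MCF10AT1 and 3.56 ± 0.0983 in MCF10Ca1a. TGFB1, whose latent product plasmin can release, was 19.3 ± 2.49, 11.2 ± 0.181 and 3.93 ± 0.388 TPM in the same order. ITGB1, an integrin partner of uPAR, was 780 ± 106 TPM in MCF10A, 464 ± 39.0 in MCF10AT1 and 753 ± 12.6 in MCF10Ca1a, with its lowest level in the line where PLAU was lowest. JUNB and ETS1 were highest in MCF10Ca1a, at 130 ± 4.32 and 63.9 ± 0.776 TPM, against 42.9 ± 7.15 and 25.9 ± 4.67 in MCF10A. PLGRKT, a membrane receptor of plasminogen, was 43.8 ± 4.02, 87.2 ± 2.84 and 84.2 ± 2.41 TPM in the 3 lines.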
